A study of Mus musculus with 4 samples.

Results

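Tfec, Mitf, Tfeb and Tfe3 form the microphthalmia (MiT) family of basic helix-loop-helix leucine zipper transcription factors. The 4 genes were taken by their symbols from the 32285 genes counted by single-cell RNA sequencing (scRNA-seq) of mouse brain cells sorted for CD45+ and CD11b+. Tfec was selected on its measured UMI counts, which were higher in the microglia of PRMT1Cx3cr1-KO mice, so its levels between the genotypes are given as a description, with no test. Its 3 paralogs were taken by family membership.

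MiT factors bind DNA as dimers at E-box sequences, and members of the family can pair with each other. TFEB, TFE3 and MITF are held in the cytoplasm when mTORC1 is active at the lysosome and enter the nucleus when nutrients are short, where they activate genes of lysosomes and autophagy through the CLEAR element, an extended E-box. MITF is best known for melanocytes and osteoclasts, and Tfec is expressed mainly in the macrophage lineage, where IL-4 induces it.

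The 4 libraries came from 4 mice, 2 of them PRMT1FL and 2 PRMT1Cx3cr1-KO. All 4 were C57BL/6 mice with floxed Prmt1 that were injected with tamoxifen and fed 0.2% cuprizone (CPZ), a copper chelator that kills oligodendrocytes and so demyelinates the brain, for 5 wk. The PRMT1Cx3cr1-KO mice also carried Cx3cr1-CreERT, a tamoxifen-inducible Cre expressed in microglia and in other Cx3cr1+ myeloid cells. The labels give the mice as 5 to 6 wk old for the diet, whereas the study's methods give that age for the tamoxifen injection. PRMT1 is an enzyme that methylates arginines of histones and other proteins, and its transcript was measured at 93.4 and 86.1 counts per 1000000 UMIs (CPM) in the microglia of the PRMT1FL mice and 69.7 and 67.6 CPM in those of the PRMT1Cx3cr1-KO mice (CPM after TMM scaling, log2 fold change -0.39, SE 0.07, edgeR adjusted p = 0.0893). The reads come from the 3′ end of transcripts, so this level does not measure the deletion itself.

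The libraries held 76943248 to 99559644 UMIs (unique molecular identifiers, each 1 captured transcript), and 40869 cells passed the filters. Any pair of libraries shared 31 to 46 barcodes, at most 0.555% of the smaller one. Of the cells, 39602 were in clusters of microglia, 18793 from PRMT1FL and 20809 from PRMT1Cx3cr1-KO mice. Clusters 0 and 4, with 1603 and 6784 cells, are called D/E-like here because they carried the markers of the study's clusters D and E. These markers join homeostatic microglial genes such as Tmem119, P2ry12 and Sall1 with Tnfaip2, Nfkbia and Il7r. The study gives Tmem119 for D and P2ry12, Sall1, Tnfaip2 and Nfkbia for E. It reports D as lost and E as gained in PRMT1Cx3cr1-KO microglia. D and E were not separated here. D/E-like cells were 19.6 and 21.9% of the microglia of the PRMT1FL mice and 21.9 and 21.6% of those of the PRMT1Cx3cr1-KO mice. Whether the mix of D and E cells inside this set differed between the genotypes was not tested. The mean log2 ratio of the 11 D and E markers over the other cells was 1.10 in cluster 0 and 1.53 in cluster 4, and no other cluster exceeded 0.0522. Among the 10 leading genes, cluster 0 had 3 of these markers and cluster 4 had 1, Il7r. Those of cluster 4 also included Txnip, Hspa1b, Hspa1a and Jun. The study names Hspa1a and Jun among markers of transcription induced by enzymatic isolation, and found no evidence that such genes drove a cluster. It also reports Jun as elevated in its cluster D and Hspa1a in its cluster F. The part of these genes in the D/E-like results was not tested. In the D/E-like cells the summed level of the 9 microglial markers was 17047 and 17778 CPM in PRMT1FL and 13911 and 13706 CPM in PRMT1Cx3cr1-KO mice. The 5 erythroid markers summed to 242 and 94.0 CPM in PRMT1FL microglia and to at most 0.0614 CPM in PRMT1Cx3cr1-KO microglia, and the part of these transcripts in the results was not tested.

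Tfec (ENSMUSG00000029553) lies on the minus strand at chr6:16833373-16898441 of GRCm38, where no other annotated gene overlaps it. Mitf (ENSMUSG00000035158) lies on the same chromosome, on the plus strand at chr6:97807052-98021349, and overlaps Gm15531 on the opposite strand. Tfeb (ENSMUSG00000023990) lies at chr17:47737030-47792419 and Tfe3 (ENSMUSG00000000134) at chrX:7762560-7775202, both on the plus strand.

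The promoter of Tfec is shown because the CLEAR-type sequences of MiT target genes can be looked for in it. Those of Plin2 and Glb1 were picked from the called listed genes whose promoter holds the E-box CACGTG, so their E-boxes are set by that choice. Both genes differed between the genotypes in D/E-like cells, in opposite directions. Each promoter is 300 bases of RefSeq sequence (GRCm38.p6), 250 before the start of transcription and 50 after it, read on the gene's strand. The capitals mark GAGGAA, the core bound by the myeloid factor PU.1, or its complement TTCCTC in Tfec, and the E-box CACGTG in Plin2 and Glb1.
Tfec, chr6:16898392-16898691, minus strand: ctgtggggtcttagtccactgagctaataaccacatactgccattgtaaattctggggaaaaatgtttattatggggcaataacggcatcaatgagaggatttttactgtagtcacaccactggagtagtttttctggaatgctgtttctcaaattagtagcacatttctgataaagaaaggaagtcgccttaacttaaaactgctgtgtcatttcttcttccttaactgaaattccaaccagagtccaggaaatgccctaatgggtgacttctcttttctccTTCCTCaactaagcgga
Plin2, chr4:86670010-86670309, minus strand: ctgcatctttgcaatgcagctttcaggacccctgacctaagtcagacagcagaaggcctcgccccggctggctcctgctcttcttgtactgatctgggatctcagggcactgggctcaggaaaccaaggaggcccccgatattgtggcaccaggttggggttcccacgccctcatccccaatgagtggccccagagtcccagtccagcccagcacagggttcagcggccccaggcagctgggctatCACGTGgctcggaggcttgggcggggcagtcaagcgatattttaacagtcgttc
Glb1, chr9:114400828-114401127, plus strand: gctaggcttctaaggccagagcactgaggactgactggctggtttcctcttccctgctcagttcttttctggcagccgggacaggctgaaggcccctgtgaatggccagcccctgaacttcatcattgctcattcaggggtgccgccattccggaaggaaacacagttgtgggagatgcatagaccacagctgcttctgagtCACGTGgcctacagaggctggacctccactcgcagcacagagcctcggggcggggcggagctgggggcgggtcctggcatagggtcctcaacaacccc

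The single GAGGAA match of Tfec began 33 bases after its start. This core stood in 28.3% of all 32851 promoters of this length, searched on both strands, and in 1 of the 9 promoters of the MiT family. None of these 9 promoters held CACGTG, which 7.15% of all promoters hold, or the M-box TCATGTG, which 3.77% hold. The E-box of Plin2 began 4 bases before its start and that of Glb1 48 bases before it. The E-box was found in 18 of the 35 genes with a promoter (51.4%) of the list of lysosomal genes that carry CLEAR elements, against 8.09% of all 27025 genes. The full CLEAR element, which is the same E-box with GT before it and AC after it, stood in 0.326% of all promoters and in 1 of those 35 genes. A match of letters is not a measured binding site.

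Tfec was rare in PRMT1FL microglia and more abundant in both PRMT1Cx3cr1-KO mice. Its UMIs numbered 17 and 8 in the PRMT1FL mice and 117 and 260 in the PRMT1Cx3cr1-KO mice. As CPM this was 0.193 and 0.110 CPM against 1.44 and 2.79 CPM, so that the genotypes did not overlap and the second PRMT1Cx3cr1-KO mouse stood well above the first. The means were 0.151 ± 0.0589 CPM in PRMT1FL and 2.11 ± 0.958 CPM in PRMT1Cx3cr1-KO mice (SD, n = 2), a log2 ratio of 3.805. In these pooled cells, more cells with Tfec and more Tfec per cell cannot be told apart from the sums alone.

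The cells with at least 1 Tfec UMI, called carriers here, numbered 15 and 8 in PRMT1FL microglia, shares of 0.137% (95% exact binomial interval 0.0765 to 0.225) and 0.102% (0.0442 to 0.202). In PRMT1Cx3cr1-KO mice they numbered 110 and 236, shares of 1.08% (0.889 to 1.30) and 2.22% (1.95 to 2.52). These intervals cover counting error only. Most carriers of the PRMT1Cx3cr1-KO mice, 93.6% and 91.9%, had a single Tfec UMI, and the highest count in a cell was 4. At this capture a cell without a Tfec UMI may still express the gene. With cells thinned to 2000 UMIs, and cells with fewer left out, the shares were 0.0200 and 0.0553% against 0.306 and 0.743%. Without the cells marked as doublets the levels were 0.173 and 0.108 CPM against 1.30 and 2.61 CPM. Weighted to the mix of clusters in PRMT1FL mice, the PRMT1Cx3cr1-KO levels were 1.38 and 2.84 CPM, close to the unweighted values.

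No Tfec was counted in the cells that should lack it. Cluster 9, with Ttr and Aldoc, genes of choroid plexus and astrocytes, among its leading genes, had Tfec in 0 of 461 cells at medians of 1751 to 3058.5 UMIs a cell in the 4 mice, and the 65 neutrophil-like cells, all from PRMT1FL mice, had none either. The upper limits in cluster 9 of the PRMT1Cx3cr1-KO mice, with 58 and 30 cells, were 5.17 and 10.0% of cells. These limits lay above the shares of carriers in the microglia of those mice, so these cells do not bound the background there. Cluster 9 held 225 and 148 cells of the PRMT1FL mice. With Tfec as rare as in PRMT1FL microglia, these and the 65 neutrophil-like cells do not bound the background either.

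Among the microglia, Tfec was highest in the D/E-like cells of the PRMT1Cx3cr1-KO mice. Its UMIs there numbered 3 and 1 in PRMT1FL and 62 and 141 in PRMT1Cx3cr1-KO mice, or 0.320 and 0.113 CPM against 5.98 and 11.3 CPM. The share of D/E-like cells with a Tfec UMI was 0.140 and 0.0583% in PRMT1FL mice, and 2.65% (2.02 to 3.40) and 5.48% (4.59 to 6.49) in PRMT1Cx3cr1-KO mice. D/E-like cells held 53.0 and 54.2% of the Tfec UMIs in PRMT1Cx3cr1-KO microglia, although they were only 21.9 and 21.6% of those microglia. Both clusters took part, at 12.1 and 16.1 CPM in cluster 0 and 5.34 and 9.90 CPM in cluster 4 of the PRMT1Cx3cr1-KO mice. The log2 ratio of the genotype means was 5.32 in D/E-like cells, where the PRMT1FL value rests on 4 UMIs, and 2.97 in the other microglia. When cells were clustered on all variable genes, the D/E-like set shrank from 8387 to 4339 cells, Tfec there was 1.35 and 1.003 CPM in PRMT1FL (1 UMI in each mouse) against 9.32 and 13.5 CPM, and the log2 ratios were 3.28 inside and 2.52 outside.

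**Figure D1:**
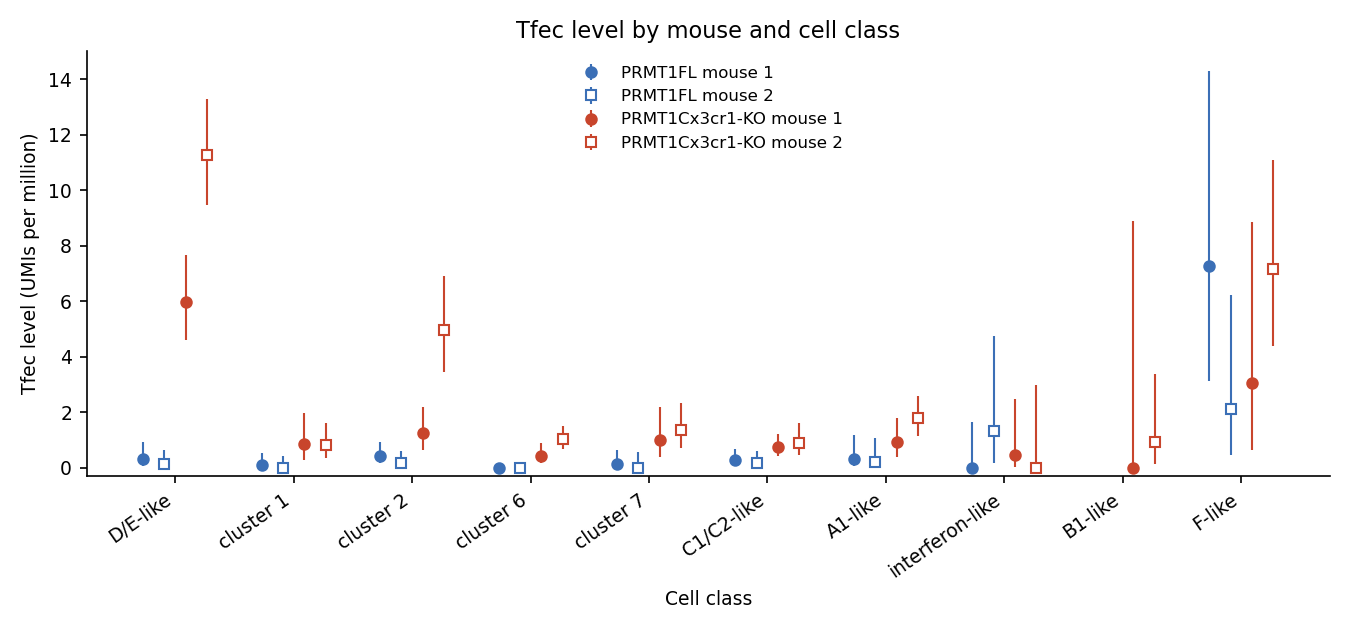
Level of Tfec (CPM, y axis) in each cell class (x axis) and mouse, with 95% exact Poisson intervals, for classes of at least 50 cells in the mouse and without cluster 9 and the neutrophil-like cells. The 2 PRMT1Cx3cr1-KO mice stand at 5.98 and 11.3 CPM in D/E-like cells, and the PRMT1FL mice at 0.320 and 0.113 CPM.

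Outside the D/E-like cells Tfec was still higher in the PRMT1Cx3cr1-KO mice, at 0.178 and 0.109 CPM against 0.773 and 1.48 CPM (55 and 119 UMIs in the latter). Cluster 2, led by Mmp12, Itgax and Cd74, came next among the microglia, with 0.424 and 0.166 CPM against 1.25 and 4.96 CPM. It stood apart from the classes below it in the second PRMT1Cx3cr1-KO mouse, whereas its interval in the first (0.647 to 2.19 CPM) overlapped theirs. Cluster 6, led by Gpnmb and Cd5l, had no Tfec UMI in the 1600 and 1107 cells of the PRMT1FL mice and 7 and 24 UMIs in the PRMT1Cx3cr1-KO mice. The dividing A1-like cells had 0.320 and 0.194 CPM against 0.915 and 1.77 CPM. The C1/C2-like cells, led by Il12b and Cxcl2 and carrying Il1b and Tnf, had 0.259 and 0.168 CPM against 0.741 and 0.889 CPM. Their 10 leading genes held 2 of the C1/C2 markers, Il1b and Tnf, and neither Itgax nor an MHC gene. Itgax, Cd74 and H2-Aa were among the leading genes of cluster 2 instead. The C1/C2-like cells are therefore not shown to be the study's MHC-associated population. In the interferon-response-like cells the counts were 0 and 2 in PRMT1FL and 1 and 0 in PRMT1Cx3cr1-KO mice, and no difference was detectable at this depth. In the PRMT1Cx3cr1-KO mice the Poisson intervals of clusters 1, 6 and 7 and of the A1-like and C1/C2-like cells overlapped within each mouse, so those classes could not be ordered.

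Tfec was captured in all 4 mice in the F-like cells, which carry Mrc1, F13a1 and other genes of border-associated macrophages and were left out of the microglia. There it measured 7.26 CPM (3.14 to 14.3) and 2.13 CPM (0.439 to 6.22) in PRMT1FL mice, and 3.04 CPM (0.626 to 8.87) and 7.18 CPM (4.38 to 11.1) in PRMT1Cx3cr1-KO mice. The genotypes overlapped in these cells, which numbered 128 to 242 in a mouse. They joined subclusters of 162, 264 and 291 cells with medians of 2690.5, 3542 and 14349 UMIs, and Tfec is given for them together. H2-Eb1, H2-Aa and Ccr2 were among the leading genes of the second subcluster. The study lists Ccr2, Mrc1, Mgl2 and F13a1 as monocyte markers of its cluster F. The F-like interval of the first PRMT1Cx3cr1-KO mouse included the 5.98 CPM of its D/E-like cells. That of the second ended just below the 11.3 CPM of its D/E-like cells. F-like cells were 1.70 and 1.87% of all cells of the PRMT1FL mice and held 32.0 and 27.3% of their Tfec UMIs, and 1.23 and 2.22% of the cells of the PRMT1Cx3cr1-KO mice with 2.50 and 7.14% of the Tfec UMIs.

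**Figure D2:**
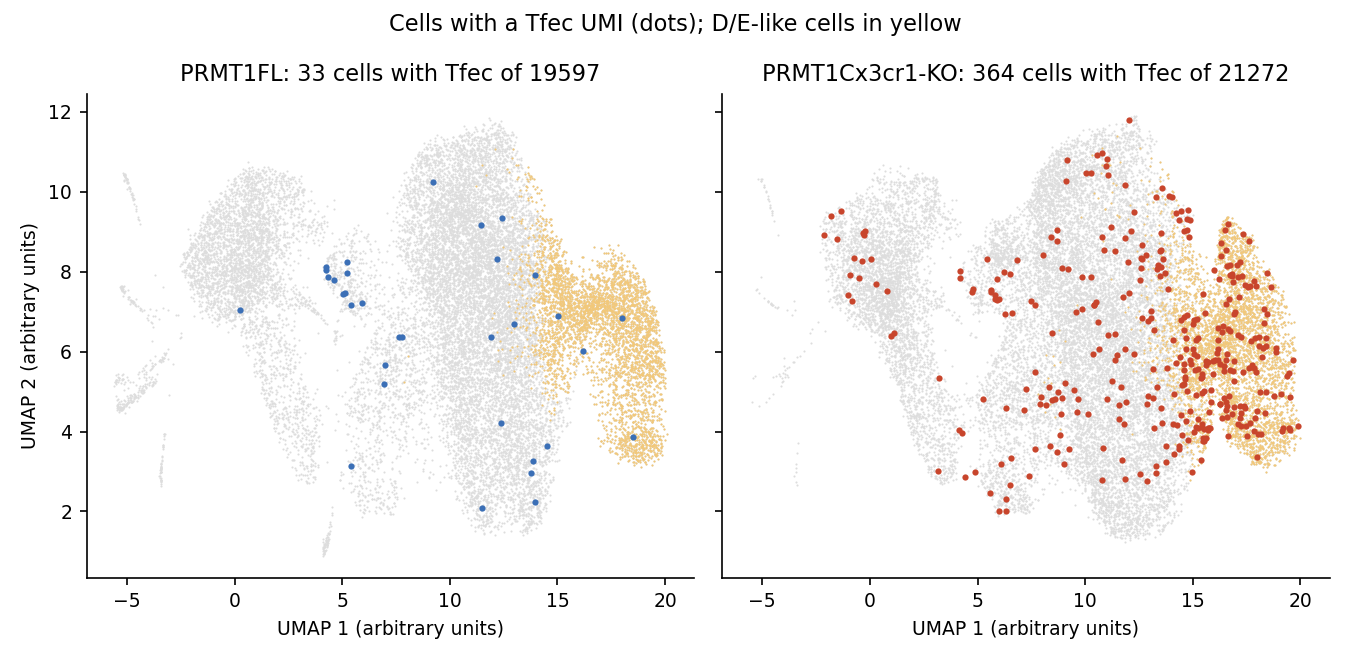
Cells of both genotypes on the 2 axes of the UMAP projection (arbitrary units), with D/E-like cells in yellow, other cells in grey and cells with at least 1 Tfec UMI as larger dots (blue, PRMT1FL; red, PRMT1Cx3cr1-KO). Of the 33 PRMT1FL carriers 23 are microglia and the other 10 F-like cells, and of the 364 PRMT1Cx3cr1-KO carriers 346 are microglia, 59 and 126 of them D/E-like cells in the 2 mice.

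The paralogs were far more often captured than Tfec and had a different pattern. A Mitf UMI was found in 23.7 to 28.7% of the microglia of a mouse, a Tfeb UMI in 15.5 to 18.1% and a Tfe3 UMI in 34.4 to 38.4%. Mitf measured 42.4 and 43.8 CPM in PRMT1FL and 41.4 and 36.6 CPM in PRMT1Cx3cr1-KO microglia. For Tfeb, the levels were 22.7 and 22.9 CPM against 23.1 and 21.1 CPM, and the genotypes overlapped. Tfe3 measured 64.3 and 62.9 CPM against 66.5 and 56.9 CPM, also with overlap. None of the 3 passed the test between genotypes over all microglia, in which edgeR called 60 of 13885 genes (0.432%). The log2 fold changes were -0.22 for Mitf (SE 0.09, adjusted p = 0.264), -0.12 for Tfeb (SE 0.08, adjusted p = 0.446) and -0.12 for Tfe3 (SE 0.10, adjusted p = 0.570) by edgeR. Without the first PRMT1Cx3cr1-KO mouse Mitf and Tfe3 fell, at -0.33 (edgeR adjusted p = 0.00769) and -0.25 (edgeR adjusted p = 0.0463), with the remaining mouse assumed to vary as the PRMT1FL mice do. Without the second PRMT1Cx3cr1-KO mouse, Tfe3 changed sign to 0.02 (edgeR adjusted p = 0.94).

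Mitf differed between the genotypes in one direction inside the D/E-like cells and in the other outside them. In D/E-like cells it measured 47.2 and 48.5 CPM in PRMT1FL and 56.1 and 57.6 CPM in PRMT1Cx3cr1-KO mice. In the other microglia it measured 41.8 and 43.2 CPM against 39.2 and 33.3 CPM, and in neither set of cells did the genotypes overlap. Neither change passed the test on its own, at log2 fold changes of 0.24 (SE 0.09, edgeR adjusted p = 0.0920) and -0.30 (SE 0.10, edgeR adjusted p = 0.231). The difference of the 2 genotype effects did pass, at 0.56 on the log2 scale (SE 0.10, edgeR adjusted p = 7.15e-05), and ranged from 0.40 to 0.72 when each mouse was left out in turn. That test called 14.2% of 13520 genes, and the D/E-like cells were shallow, with medians of 2647 and 3999 UMIs in clusters 0 and 4.

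Tfeb and Tfe3 were higher in D/E-like cells than elsewhere in every mouse, whatever its genotype. Tfeb measured 35.7 to 40.4 CPM there and 18.8 to 21.1 CPM in the other microglia. Tfe3 measured 128, 115, 114 and 96.1 CPM in the D/E-like cells of the PRMT1FL and then the PRMT1Cx3cr1-KO mice, and 50.8 to 59.6 CPM elsewhere. In the D/E-like cells the genotype effect was -0.04 for Tfeb (SE 0.11, edgeR adjusted p = 0.863) and -0.22 for Tfe3 (SE 0.10, edgeR adjusted p = 0.180). The difference of effects inside and outside was 0.13 for Tfeb (SE 0.10, edgeR adjusted p = 0.439) and -0.10 for Tfe3 (SE 0.07, edgeR adjusted p = 0.407). All 3 paralogs were low in cluster 7, led by haemoglobin genes and Lgals3, with Mitf at 13.9 to 18.9 CPM, Tfeb at 11.9 to 12.6 CPM and Tfe3 at 16.2 to 22.1 CPM. The microglial class with the highest Mitf in all 4 mice was cluster 2, at 57.1 to 64.1 CPM.

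**Figure D3:**
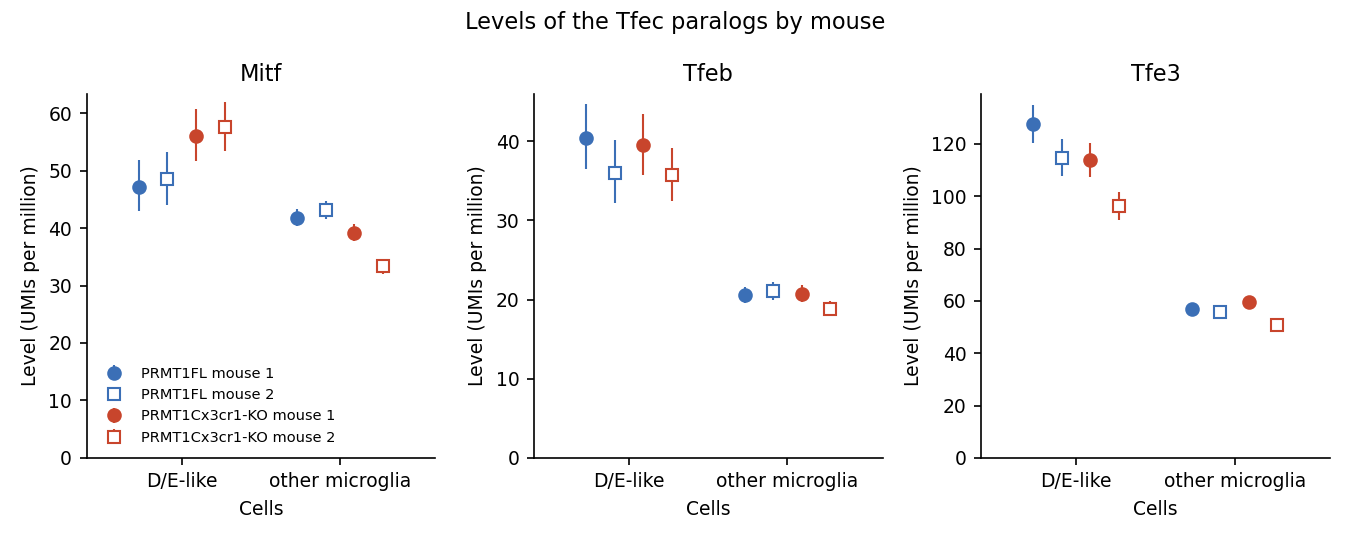
Levels of Mitf, Tfeb and Tfe3 (CPM, y axes) in D/E-like cells and in the other microglia of each mouse, with 95% exact Poisson intervals. Mitf in PRMT1Cx3cr1-KO mice stands above PRMT1FL in D/E-like cells (56.1 and 57.6 against 47.2 and 48.5 CPM) and below it in the other microglia (39.2 and 33.3 against 41.8 and 43.2 CPM).

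Across the 53 sums of a mouse and a cluster with at least 50 cells, Mitf and Tfe3 ran together most closely of the family, with a Pearson correlation of 0.83 of log2(CPM + 1), followed by Tfeb with Tfe3 at 0.70 and Mitf with Tfeb at 0.60. Tfec correlated with Mitf at 0.34, with Tfeb at 0.29 and with Tfe3 at 0.39. The sums share their libraries and differ in depth, so these values are descriptions. The genes most like Tfec were Blvrb, a biliverdin reductase (0.80), Cfp, which encodes the complement regulator properdin (0.77), the chemokine gene Ccl24 (0.76), Prune2 (0.71), Gm13383 (0.71), Treml1 (0.70), Ninj1 (0.69), the clathrin heavy chain gene Cltc (0.67), 2310002F09Rik (0.66) and Mtmr6 (0.66). Blvrb measured 66.1 and 69.5 CPM in the D/E-like cells of PRMT1FL mice and 291 and 380 CPM in those of PRMT1Cx3cr1-KO mice. Cfp had 0 and 0.340 CPM against 9.36 and 24.0 CPM in the same cells. Blvrb and Cfp were picked for their correlation with Tfec over these same sums. Their sharing its pattern by mouse and genotype is therefore largely set by that choice. None of these 10 genes was among the nearest of a paralog, which were Tns3 (0.90) and Mroh1 (0.87) for Mitf, Tmem168 (0.83) for Tfeb, and Mef2a (0.97) and Lrrk1 (0.96) for Tfe3.

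The genes around the MiT factors were followed in 7 lists of 165 genes, chosen with earlier results of these data known. Over all microglia 1 of the 151 that could be tested passed between the genotypes, near the background of 0.432%. It was Atp6v0d2, a subunit of the vacuolar proton pump that osteoclasts use, which fell by 1.06 on the log2 scale (4.22 and 4.15 CPM against 2.01 and 2.004 CPM, edgeR adjusted p = 0.0403). Its fold change stayed between -1.07 and -1.05 with any mouse left out, but it no longer passed without the first PRMT1FL mouse (edgeR adjusted p = 0.448) or without the second (0.466). Of the 46 lysosomal genes, 6 had a positive fold change and the median was -0.15, against -0.004 over all genes tested. DESeq2 called more, 4.97% of the genes (2.89% higher and 2.08% lower) and 17 of the listed ones (5 higher and 12 lower), of which 10 were lysosomal genes that were lower in PRMT1Cx3cr1-KO.

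In the D/E-like cells 32 of the 138 listed genes tested passed between the genotypes, 23 higher and 9 lower in PRMT1Cx3cr1-KO, where 15.3% of 11590 genes passed, 8.07% higher and 7.26% lower. In the microglia outside them 0 of 150 listed genes passed, where edgeR called 18 of 13598 genes (0.132%) and 2407 had an unadjusted p under 0.05. The mix of the D/E-like cells differed between mice, with 268 and 282 cells of cluster 0 beside 1880 and 1432 of cluster 4 in PRMT1FL, and 375 and 678 beside 1852 and 1620 in PRMT1Cx3cr1-KO mice. In cluster 4 alone 29 listed genes passed. The share of all genes that passed there is not given, so this count cannot be set against a background. The part of the mix of clusters in the calls was not tested. Marker sums of other cell types and states also moved with genotype in these cells. The B2 markers of phagocytic microglia, which include Ctsd, Ctsb and Gusb, summed to 16517 and 16846 CPM in PRMT1FL and 20183 and 23579 CPM in PRMT1Cx3cr1-KO mice, the monocyte markers to 29.0 and 30.1 against 52.5 and 72.4 CPM, and the dendritic cell markers, which include the microglial gene Siglech, to 945 and 923 against 343 and 249 CPM. Their part in the results was not tested. All values of single listed genes from here on are CPM after TMM scaling.

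Of the 46 lysosomal genes 7 rose and 4 fell in D/E-like cells, with a median of 0.03 against 0.001 over all genes. Lipa, which encodes the acid lipase that frees cholesterol and fatty acids in lysosomes, rose most of them, from 109 and 113 CPM to 253 and 367 CPM (log2 fold change 1.48, SE 0.15, edgeR adjusted p = 0.000135). The protease gene Ctsd, among the most abundant, rose from 10721 and 10794 CPM to 14020 and 16568 CPM (0.51, edgeR adjusted p = 0.00918). Atp6v1a, Atp6v1e1 and Atp6v1g1, subunits of the proton pump, rose as well, and the first measured 60.5 and 65.9 CPM against 85.8 and 83.7 CPM. Glb1, the lysosomal beta-galactosidase, fell from 61.5 and 64.0 CPM to 37.1 and 31.2 CPM (-0.88, edgeR adjusted p = 0.000412), and Ctsf and Sgsh fell as well. Ctsb, another abundant protease, measured 3290 and 3559 CPM against 3554 and 3804 CPM and did not pass (edgeR adjusted p = 0.492).

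Of the 26 autophagy genes 4 rose and 1 fell, with a median of 0.08. Sqstm1, the receptor p62 that brings cargo to autophagosomes, rose from 168 and 149 CPM to 413 and 308 CPM (1.19, SE 0.13, edgeR adjusted p = 0.00026). Gabarapl1, an Atg8 protein of the autophagosome membrane, rose from 32.8 and 31.9 CPM to 51.4 and 55.9 CPM (0.73, edgeR adjusted p = 0.000807). Wipi1 and Hif1a rose too, and the tethering subunit Vps18 fell, by 0.40 on the log2 scale.

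The list of nutrient-sensing genes upstream of the MiT factors had 3 that rose and 1 that fell among 34, a smaller share than the 15.3% of all genes called in these cells. Xpo1, the exporter that carries MiT factors out of the nucleus, rose from 18.1 and 16.6 CPM to 22.6 and 25.98 CPM (0.49, edgeR adjusted p = 0.0253). The 14-3-3 genes Ywhag and Ywhaz, whose proteins hold phosphorylated TFEB in the cytoplasm, rose by 0.34 and 0.27. Rptor, the mTORC1 subunit that recruits its substrates, fell from 72.6 and 72.2 CPM to 56.2 and 58.8 CPM (edgeR adjusted p = 0.0234).

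Of the 12 macrophage and osteoclast genes tested, 3 rose and 1 fell, with a median of 0.25. Plin2, which coats lipid droplets, rose from 79.7 and 71.1 CPM to 108 and 124 CPM (0.62, edgeR adjusted p = 0.00238), and the integrin gene Itgb3 rose by 0.63. Gpnmb, a MITF target of lysosomes and melanosomes, rose from 21.1 and 19.9 CPM to 27.4 and 36.0 CPM (0.63, edgeR adjusted p = 0.0132), a call that was lost in cluster 4 alone (0.0857) and without the second PRMT1FL mouse (0.0538). Trem2, the lipid receptor of microglia, fell by 0.44 (edgeR adjusted p = 0.0283), a call lost without the second PRMT1FL mouse (0.162) or the second PRMT1Cx3cr1-KO mouse (0.108).

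Of 9 genes that respond to IL-4 in macrophages, 3 rose and none fell, with a median of -0.06. Ccl24 rose from 4.25 and 4.70 CPM to 13.8 and 14.5 CPM (1.66, edgeR adjusted p = 0.000187) and Mrc1, the mannose receptor gene, from 2.34 and 2.64 CPM to 7.58 and 7.74 CPM (1.62, edgeR adjusted p = 0.00113). Il4ra, a chain of the IL-4 receptor, rose from 79.2 and 65.0 CPM to 109 and 106 CPM (0.57, edgeR adjusted p = 0.00412). The 9 markers of F-like and border-associated macrophages, Mrc1 among them, summed to 150 and 160 CPM in the D/E-like cells of PRMT1FL mice and 169 and 241 CPM in those of PRMT1Cx3cr1-KO mice, and their part in these values was not tested. Of the 17 other E-box factors 4 rose (Myc, Srebf1, Srebf2 and Hif1a) and 2 fell (Max and Mxd4), with a median of -0.01. No gene of the melanocyte list was abundant enough to be tested in D/E-like cells.

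**Figure D4:**
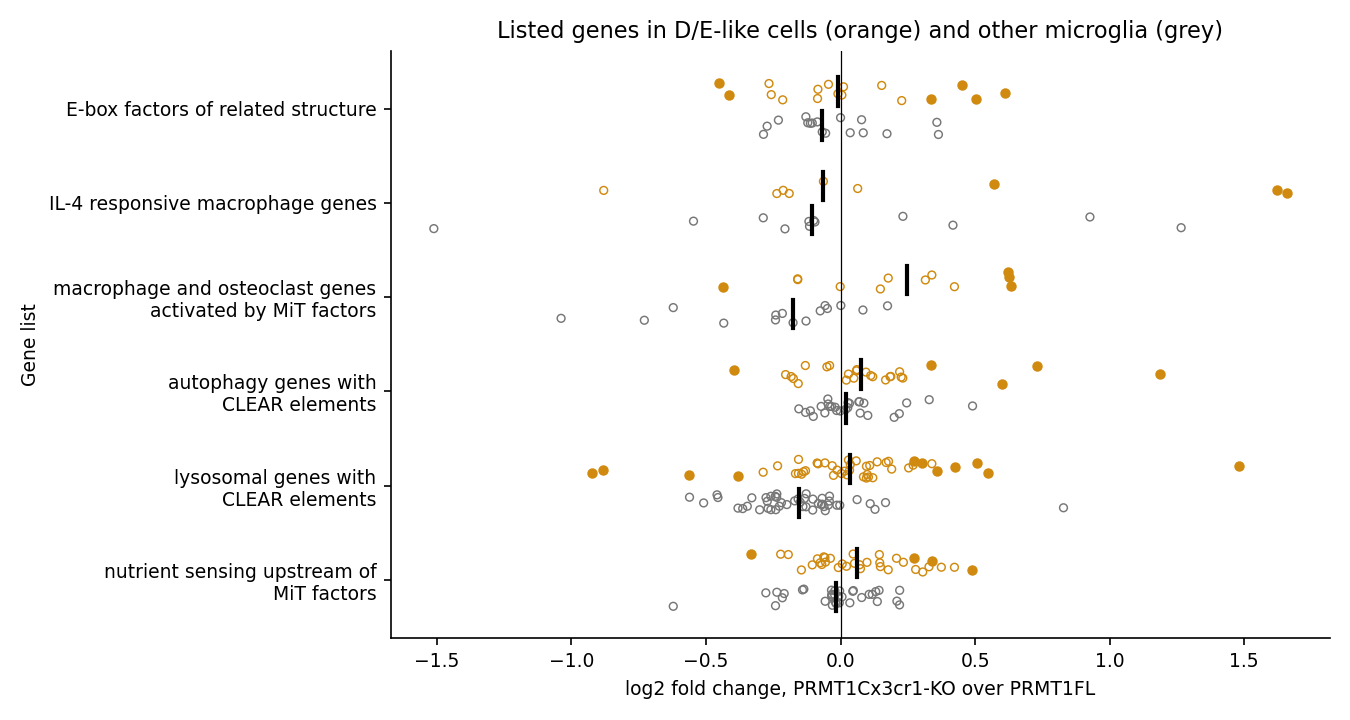
Log2 fold change between genotypes (x axis, PRMT1Cx3cr1-KO over PRMT1FL) of each listed gene, by list (y axis), in D/E-like cells (orange) and in the other microglia (grey), where filled points passed edgeR's test at an adjusted p under 0.05 and black bars are list medians. The lysosomal median is 0.03 in D/E-like cells and -0.15 in the other microglia, and no grey point is filled.

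Tested directly, the genotype effect differed inside and outside the D/E-like cells for 46 of 151 listed genes (43 with the higher value inside, 3 with the lower), against 8.65% of all genes higher and 5.58% lower in the same test. The lysosomal list had 24 higher and 2 lower of 46. Lipa (1.35, edgeR adjusted p = 4.66e-14), Sqstm1 (0.95, edgeR adjusted p = 7.73e-12), Plin2 (0.71, edgeR adjusted p = 3.17e-08) and Ctsd (0.64, edgeR adjusted p = 6.52e-07) were higher inside by these log2 differences. Gpnmb differed by 0.88 (edgeR adjusted p = 4.66e-07), at 131 and 124 CPM in PRMT1FL against 103 and 113 CPM in PRMT1Cx3cr1-KO mice outside the D/E-like cells. The macrophage and osteoclast list had 7 higher and none lower.

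Of the 32 listed genes called in D/E-like cells 26 had a promoter in the RefSeq table, and 10 of those held the E-box CACGTG. Of all genes 8.09% held it. The lists are not a neutral set for this count, since many genes were listed for CLEAR elements, and 51.4% of the lysosomal list held it. The 10 genes were Plin2, Atp6v1a, Ctsd, Gla and Hif1a among those that rose, and Glb1, Ctsf, Sgsh, Max and Mxd4 among those that fell. Lipa and Sqstm1 were not among them. The GAGGAA core shown for Tfec stood in 8 of the 26, Lipa and Mrc1 included, a share near the 31.3% of all genes.

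The carriers of the 2 PRMT1Cx3cr1-KO mice were then compared with the other microglia of the same mouse, leaving out Tfec. Carriers were deeper cells, with medians of 7870 and 8106 UMIs against 6269 and 6921, and 24.5 and 22.5% of them were marked as doublets against 8.10 and 8.10% of the others. Of carriers, 53.6 and 53.4% were D/E-like, against 21.5 and 20.9% of the others. For depth, thinned values are given with some of the differences below. A fit without the marked doublets was also run, but its values are not given here. The part of depth and doublets in these differences was not tested further.

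Mitf was higher in carriers, at 54.6 and 53.8 CPM against 43.6 and 37.4 CPM in the other microglia (log2 difference 0.45, SE 0.11, edgeR adjusted p = 0.000977), where edgeR called 16.3% of 12981 genes. With cells thinned to 2000 UMIs, where 6.99% of genes passed, it was still called (0.85, edgeR adjusted p = 0.00415), and it did not pass by DESeq2, which called 5.86% (adjusted p = 0.121), or among D/E-like cells alone (0.32, edgeR adjusted p = 0.616). Tfeb was at 36.2 and 27.6 CPM against 24.3 and 21.7 CPM (0.44, edgeR adjusted p = 0.0222), a call that was lost after thinning although the difference was larger (0.84, edgeR adjusted p = 0.0671), by DESeq2 (0.46, adjusted p = 0.252) and among D/E-like cells (0.11, edgeR adjusted p = 0.948). Tfe3 did not pass, at 73.9 and 66.5 CPM against 70.3 and 58.7 CPM (0.14, edgeR adjusted p = 0.412). Prmt1 itself was lower in carriers, at 50.8 and 52.0 CPM against 74.7 and 73.9 CPM (edgeR adjusted p = 2.57e-05). It did not pass after thinning (-0.71, edgeR adjusted p = 0.0598) or in D/E-like cells alone (-0.41, edgeR adjusted p = 0.532).

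Of the listed genes 41 of 146 passed in carriers, 16 higher and 25 lower, against 6.71% of all genes higher and 9.58% lower. The lysosomal list had 4 higher and 18 lower of 46, with a median of -0.19 against -0.02 over all genes. This direction did not hold among D/E-like cells alone, where 1 was higher, none lower and the median 0.05, and after thinning the list had 1 higher and 13 lower (4 and 21 over all listed genes). Lipa was at 358 and 411 CPM against 176 and 225 CPM (0.94, edgeR adjusted p = 5.06e-33) and Sqstm1 at 398 and 322 CPM against 224 and 175 CPM (0.85, edgeR adjusted p = 1.37e-27). Glb1 was lower, at 37.7 and 30.4 CPM against 74.0 and 66.0 CPM (-1.06, edgeR adjusted p = 5.95e-16), and so were Gusb (-0.46) and Ctsb (-0.32), whereas among D/E-like cells alone the differences were -0.25 for Glb1, 0.12 for Gusb and 0.23 for Ctsb and did not pass. Gpnmb was called higher (0.50, edgeR adjusted p = 1.27e-07), but the second mouse decided this, at 188 against 108 CPM, whereas the first had 94.7 against 99.9 CPM. The Ragulator genes Lamtor1 and Lamtor2 and the Rag GTPase gene Rraga, which place mTORC1 on the lysosome, had log2 differences of -0.43, -0.45 and -0.49 and passed, whereas among D/E-like cells alone they had 0.10, 0.09 and -0.14 and did not.

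Set against other D/E-like cells, carriers differed in few listed genes. Here edgeR called 126 of 10951 genes (1.15%), 0.868% higher and 0.283% lower, and of the listed genes 3 were higher and 1 lower. Lipa was at 493 and 481 CPM in D/E-like carriers against 241 and 354 CPM (0.70, edgeR adjusted p = 7.86e-09), and Sqstm1 at 584 and 432 CPM against 405 and 296 CPM (0.54, edgeR adjusted p = 4.82e-05). Hif1a was higher (0.40, edgeR adjusted p = 0.0432). Klf4, a zinc-finger factor of alternatively activated macrophages, was lower, at 40.0 and 61.7 CPM against 134 and 74.0 CPM (-0.77, edgeR adjusted p = 0.000473). These carriers too were deeper, with medians of 6121 and 6662.5 UMIs against 3410 and 3895.5.

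**Figure D5:**
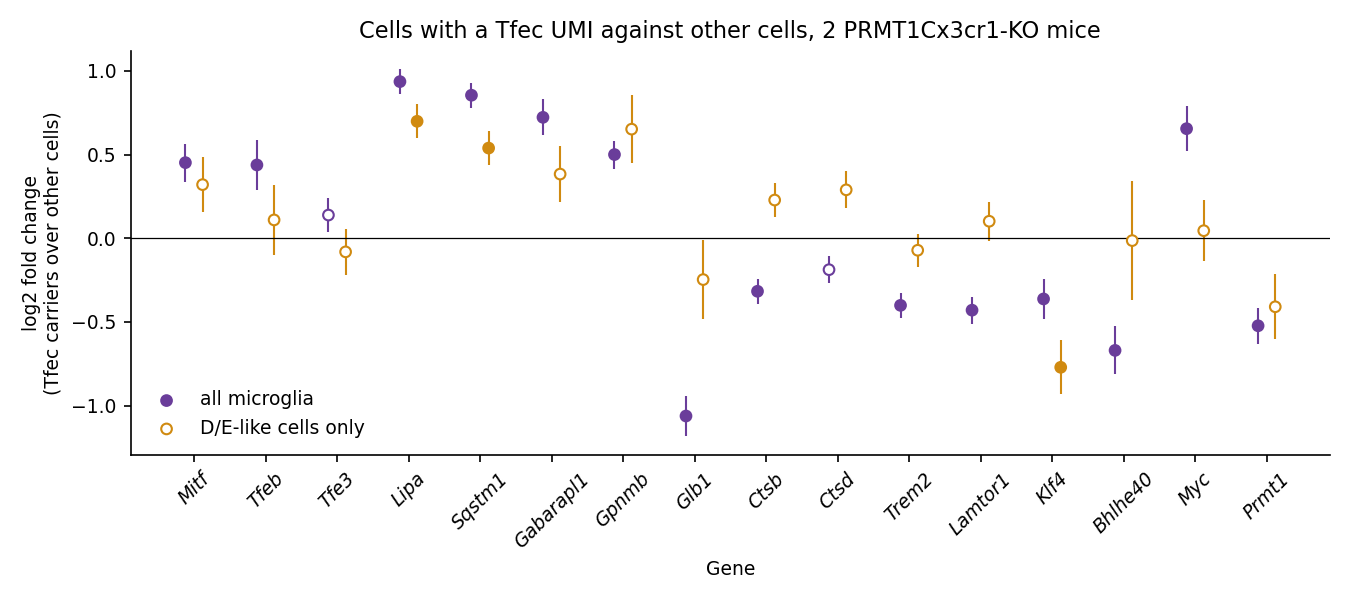
Log2 fold change of named genes (x axis) in cells with a Tfec UMI over other cells (y axis) of the 2 PRMT1Cx3cr1-KO mice, with standard errors, over all microglia (purple) and D/E-like cells only (orange), where filled points passed at an edgeR adjusted p under 0.05. Lipa and Sqstm1 are filled and positive in both, and Glb1 is filled, at -1.06, only over all microglia.

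Among genes with at least 100 UMIs, the largest rises in carriers over all microglia were of Gm36266 (2.93), which rested on the second mouse with 29 UMIs against 0 in carriers of the first, and of Acod1, which encodes the enzyme that makes itaconate (2.70). Acod1 was at 18.1 and 16.4 CPM in carriers against 3.08 and 1.99 CPM without TMM scaling, and it passed in D/E-like cells alone as well (3.12, edgeR adjusted p = 9.73e-13). Plxna1 (2.65), Mmp12 (2.48), Tnip3 (2.46), Gm36043 (2.45), Cfp (2.28), Treml4 (2.28), A530064D06Rik (2.23) and Slc36a2 (2.23) followed. Of these Tnip3 (3.14), Cfp (1.20), Treml4 (0.91) and A530064D06Rik (0.94) passed among D/E-like cells too. The macrophage elastase gene Mmp12 had 0.41 there (edgeR adjusted p = 0.872). Tnip3 rested on 6 and 12 UMIs in carriers of the first and second mouse. After thinning Tnip3 (2.82, edgeR adjusted p = 0.261), Plxna1 (3.16, edgeR adjusted p = 0.0531) and Slc36a2 (2.39, edgeR adjusted p = 0.235) did not pass. Acod1, Mmp12, Cfp, Treml4 and A530064D06Rik still passed, and Gm36266 and Gm36043 had no thinned value. The 5 largest falls were of genes with no UMI in any carrier. Of these Slc43a1, Gm39556 and Gm10642 did not pass after thinning (edgeR adjusted p = 0.585, 0.670 and 0.693). Lcn2 and Hist1h3b had no thinned value. Lcn2, a granule gene of neutrophils with 310 UMIs in the other cells, was at least 2.36-fold lower at a floor of 3 UMIs over the carriers, Gm39556 at least 2.10-fold, Slc43a1 at least 2.08-fold, Gm10642 at least 1.95-fold and Hist1h3b at least 1.498-fold. The 7 neutrophil markers summed to 5.50 and 5.72 CPM in carriers and 0.810 and 101.03 CPM in the other microglia, and 5 of them were at 0 in carriers.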

How the data were processed

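Cells were sorted for CD45+ and CD11b+ and their RNA was captured with 10x Genomics 3′ chemistry. The deposited values are UMI counts per gene and cell, made by the authors with Cell Ranger 3.1.0 on mm10 and not normalized. The submitters' notes also name Seurat 3.2.0 and Scanpy 1.5.2. Each library is 1 mouse. Groups were taken from the sample labels.

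As in the study, a cell was kept if it had 200 to 6000 detected genes and mitochondrial UMIs of at most 10%. They were log-normalized and clustered with scanpy 1.11.5 (2000 variable genes, 20 components, Leiden resolution 0.5). Genes that differed between genotypes and all listed genes were left out of the variable genes (1357 in all), so that clusters were not built on them. Clusters were named from markers of the study's clusters. Doublets were scored with Scrublet, whose automatic threshold marked nearly no cells, so the highest scores at 0.8% per 1000 cells of a library were marked and kept in the main values.

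UMI counts were summed per mouse, or per mouse and carrier state with the mouse as a block, and tested with edgeR 4.0.16 (quasi-likelihood, TMM, low counts filtered, Benjamini-Hochberg over all genes tested, threshold 0.05) in R 4.3.3. DESeq2 1.42.0 was an alternative. CPM is the UMIs of a gene per 1000000 of the sum. Intervals are exact (95%), and limits for a count of 0 use 3 counts. Promoters were read from RefSeq and gene positions from GENCODE.

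Named were the family, up to 4 called members of each list with the smallest p and its 2 most abundant, the 10 genes most correlated with Tfec and 5 with each paralog, and the 10 largest rises and 5 largest falls in carriers among genes of at least 100 UMIs. Prmt1 and other genes named beside them were chosen after their values were seen. The members and lists were chosen with earlier results of these data known, and the fits inside and outside the D/E-like cells, the test of the difference between them and the marking of doublets were added after the data were seen. On simulated counts the fits recovered 99% of 2-fold changes over all microglia (13869 genes), 96% in D/E-like cells (11579), 62% in carriers (12940) and 58% for the difference of effects (13184). The simulation gave every gene the same fixed spread, not the spread of these mice, and placed changes only in well-counted genes. These shares therefore do not give the power of the tests on these data. With 2 mice per genotype, p-values rest on the spread between few animals. edgeR also pools this spread over genes, so p-values of the carrier fits do not measure a gene's own spread between the 2 mice. Gpnmb passed there (edgeR adjusted p = 1.27e-07) although its log2 difference was -0.076 without the second mouse and 0.80 without the first.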

Additional observations from a re-analysis of the deposited data

Results flagged for a closer look

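The genotype effect on Mitf inside the D/E-like cells minus that outside them was 0.56 on the log2 scale (SE 0.10, edgeR adjusted p = 7.15e-05). It was 1 of the 1924 genes of 13520 (14.2%) that the test of this difference called. Inside these cells the PRMT1Cx3cr1-KO mice had the higher Mitf without overlap, and outside them the lower. In the other alternatives the value lay between 0.51 and 1.10.

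The same test called 46 of the 151 listed genes, where 14.2% of all genes were called. The number of listed genes called changed with the mouse left out. The share of all genes called in those refits was not counted, so they cannot be set against a background.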

How the results depend on the processing

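Mitf, Tfeb and Tfe3 did not pass the test between the genotypes over all microglia under most alternatives. The exceptions and sign changes follow. Mitf reached -0.33 without the first PRMT1Cx3cr1-KO mouse (range over single mice left out -0.33 to -0.11) and had the opposite sign in D/E-like cells (0.24). Tfe3 ranged from -0.25 to 0.017 over single mice left out. The listed genes called numbered 17 with DESeq2, 27 with no filter on low counts, 0 to 40 over single mice left out, 9 with all cells, 3 with thinned cells, 32 in D/E-like cells and 0 outside them. All genes called numbered 690, 1551, 4 to 2361, 749, 244, 1776 and 18 under the same settings, so these counts depended on the setting throughout; the causes were not tested. The replicate numbers gave a correlation of same-numbered deviations of 0.201 over only 2 pairs and share no more than a number, and with a replicate block 5 listed and 267 of all genes were called over all microglia, and 41 and 2308 in D/E-like cells. In D/E-like cells DESeq2 called 19 listed and 872 of all genes, and single mice left out gave 16 to 40 and 933 to 2450. Tfeb there changed sign without the first PRMT1FL mouse (0.03) and without the second PRMT1Cx3cr1-KO mouse (range over single mice -0.12 to 0.052). For the difference of effects, single mice left out gave 26 to 51 listed genes, and clustering on all variable genes gave Tfeb 0.69 (edgeR adjusted p = 0.00971). In carriers 25 listed and 787 of all genes were called after thinning, 25 and 761 with DESeq2, and 4 and 126 in D/E-like cells. Among the signs that turned there were, in D/E-like cells, those of Tfe3 (-0.082), Ccl24 (-0.41), Gusb (0.12), Ctsb (0.23), Lamtor1 (0.10) and Lamtor2 (0.09), and that of Gpnmb without the second mouse (-0.076, against 0.80 without the first). The log2 ratio of Tfec was 5.32 in D/E-like cells and 2.97 outside, 3.28 and 2.52 with clusters from all variable genes, and over all microglia 3.25 to 4.27 over single mice left out. The D/E-like share of Tfec UMIs was 62.4% with all variable genes and 64.3% with thinned cells in the first PRMT1Cx3cr1-KO mouse, and 41.2% with another clustering seed, 68.8% with all variable genes and 60.9% without marked doublets in the second.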
